A study of Rattus norvegicus with 9 samples.

Results

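The transforming growth factor-β (TGF-β) superfamily is represented here by 5 ligand genes (TGFB1, TGFB2, INHBA, BMP2 and BMP4) and 2 receptor genes (TGFBR2 and AMHR2). These 7 genes were chosen by name among the 22512 genes that the deposited expression table lists, and each was followed in all 9 libraries. The libraries came from cultured cardiac fibroblasts (CFs) of neonatal rats, the collagen-producing cells of the heart, which were taken by differential adherence and used at early passage in medium with 10% fetal bovine serum. The 3 libraries of the blank group came from cells without added agent. The 3 libraries of the AngII group came from cells given angiotensin II (AngII), a peptide hormone that activates fibroblasts, at 0.1 µM for 72 h. The 3 libraries of the vericiguat + AngII treatment group came from cells that received vericiguat, a stimulator of soluble guanylate cyclase, at 1.0 µM for 24 h ahead of the same AngII treatment. That order and those times are from the sample labels, whereas the methods of the migration assay put AngII first. The labels do not say whether the libraries of a group came from separate cultures or animals, so each p-value measures the spread between these libraries only.

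Ligands of this superfamily are secreted dimers that bring type I and type II receptor kinases together, and the activated type I receptor phosphorylates SMAD proteins that enter the nucleus and act on gene expression. TGF-β and activin ligands act mainly through SMAD2 and SMAD3, and bone morphogenetic proteins (BMPs) act mainly through SMAD1, SMAD5 and SMAD9. In the heart, TGF-β1 is best known as a signal that turns fibroblasts into matrix-producing myofibroblasts.

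Expression was given as FPKM, a fragment number scaled by the length of the gene and by the total mapped in its library. The 3 groups differed in scale before any single gene was considered. A set of 13 entries named KEF51, whose names match no gene in the rat gene table, held 96.7% to 97.9% of the summed FPKM in the 6 blank and AngII libraries and 45.3% to 52.3% in the treated libraries. The summed FPKM of all other genes averaged 34987 ± 3539 for blank, 52432 ± 6076 for AngII and 429626 ± 3804 for the treatment group (SD, n = 3 each), which is 12.3-fold above blank and 8.19-fold above AngII. Genes at FPKM 1 or more numbered 260 to 1542 per blank library, 1155 to 1517 per AngII library and 11280 to 11565 per treated library, and blank library 2 held the fewest. The submitters' processing notes name the build OryCun2.0, a rabbit assembly, while the labels name rat as the organism, so which orthologous sequences each value counts was not checked. Of the fibroblast markers fixed for the check, 4 of 14 were listed by symbol (COL1A2, DCN, LUM and FN1), and their summed relative level, defined further on, was 47.0 to 797 ppm in blank, 123 to 562 in AngII and 848 to 1236 in the treated libraries, with FN1 at 0 in 1 AngII library. Markers of other cells moved with the treatment as well. The summed level of 7 of 15 cardiomyocyte markers was 192 to 280, 982 to 1983 and 9125 to 14913 ppm in the 3 groups. That of 3 of 9 smooth muscle markers was 25.4 to 815, 99.7 to 127 and 998 to 1715, that of 2 of 9 endothelial markers was 1.49 to 12.8, 1.81 to 7.31 and 191 to 201, and none of 9 macrophage markers was listed. The 2 of 8 listed erythroid markers summed to 4247 to 12834, 4460 to 5752 and 19621 to 34873 ppm. In the blank group the endothelial marker KDR was at 0 in every library. Of the cardiomyocyte markers, MYH7 alone averaged 8358 ppm in the treated libraries. NPPA went the other way from AngII to the treatment group, with means of 0, 1.42 and 0.494 ppm in the 3 groups. The part of these cell types in the results for the 7 genes was not tested, and in bulk RNA fewer cells of a type and less RNA per cell cannot be told apart.

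TGFB1, TGFB2, BMP2, BMP4, TGFBR2 and AMHR2 had higher FPKM in each treated library than in any blank or AngII library, and INHBA did not. TGFB1 encodes TGF-β1, the main profibrotic isoform. Its FPKM was 1.27, 0.207 and 1.01 in blank, 0.092, 1.04 and 0 in AngII, and 8.51, 10.7 and 10.5 in the treated libraries. The treated values lay above all others, while the blank and AngII ranges overlapped. The mean of 9.90 ± 1.21 (SD, n = 3) in the treatment group was 26.3-fold the AngII mean of 0.377 ± 0.575 and 11.9-fold the blank mean of 0.831 ± 0.556. The first of these ratios rested on AngII library 2, since it was 215-fold without that library and 17.5-fold without AngII library 3. TGFB2 encodes the TGF-β2 isoform, which depends on the coreceptor betaglycan for binding to the type II receptor. Its FPKM was listed at 0 in each blank library and in AngII libraries 2 and 3, at 0.074 in AngII library 1, and at 4.17, 4.21 and 5.34 in the treated libraries. No fold is given for TGFB2, because only 1 of the 6 other libraries held a value above 0.

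INHBA encodes the βA subunit of activins and inhibins. Its FPKM was 0.457, 0 and 0.239 in blank, 0.223, 0.102 and 0.074 in AngII, and 0.557, 0.138 and 0.726 in the treated libraries. Treated library 2 lay within both other groups, so that INHBA was the only ligand or receptor of the 7 whose treated FPKM overlapped with them. Its treated mean of 0.474 ± 0.303 (SD, n = 3) was 3.56-fold the AngII mean (5.38-fold without AngII library 1) and 2.04-fold the blank mean (3.96-fold without blank library 1 and 1.36-fold without blank library 2). BMP2, a bone morphogenetic protein with roles in heart valve and bone formation, was listed at 0.309, 0 and 0.047 in blank, at 0 in every AngII library, and at 2.72, 0.608 and 0.78 in the treated libraries. The treated values of BMP2 lay above those of both other groups, although treated library 1 held more than the other 2 treated libraries together. The treated mean of 1.37 ± 1.17 (SD, n = 3) was 11.5-fold the blank mean, 58.3-fold without blank library 1 and 5.85-fold without treated library 1. BMP4 encodes a BMP of mesoderm and heart development. Its FPKM was 0.607, 0 and 0.451 in blank, 0.255, 0.240 and 0 in AngII, and 9.98, 11.0 and 10.2 in the treated libraries. BMP4 had the narrowest treated spread of the ligands relative to its mean, 10.4 ± 0.541 (SD, n = 3), which was 63.0-fold the AngII mean and 29.5-fold the blank mean (46.1-fold without blank library 1).

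TGFBR2 encodes the type II receptor that binds TGF-β ligands and activates the type I receptor. Its FPKM was listed at 0 in each blank library and in AngII libraries 1 and 2, at 0.181 in AngII library 3, and at 8.31, 3.04 and 6.03 in the treated libraries. The treated libraries lay above the rest but differed among themselves, with a mean of 5.79 ± 2.64 (SD, n = 3). AMHR2 encodes the type II receptor of anti-Müllerian hormone, a receptor known from the gonads and the Müllerian duct. Its FPKM was 0.214, 0.009 and 0.167 in blank, 0.012, 0.059 and 0.072 in AngII, and 1.34, 1.14 and 1.14 in the treated libraries. AMHR2 was above 0 in all 9 libraries, and its treated mean of 1.20 ± 0.117 (SD, n = 3) was 25.3-fold the AngII mean and 9.27-fold the blank mean. Of the 7 genes, 6 did not overlap between the treatment group and the AngII group, where 82.1% of all genes above 0 in any library were higher without overlap. Against blank the number was also 6 of 7, where 83.4% of all such genes were higher without overlap. For each of these genes the two-sided exact permutation p was 0.1, the smallest that 3 libraries against 3 can give, and 0.175 after Benjamini-Hochberg adjustment over 21 comparisons.

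**Figure D1:**
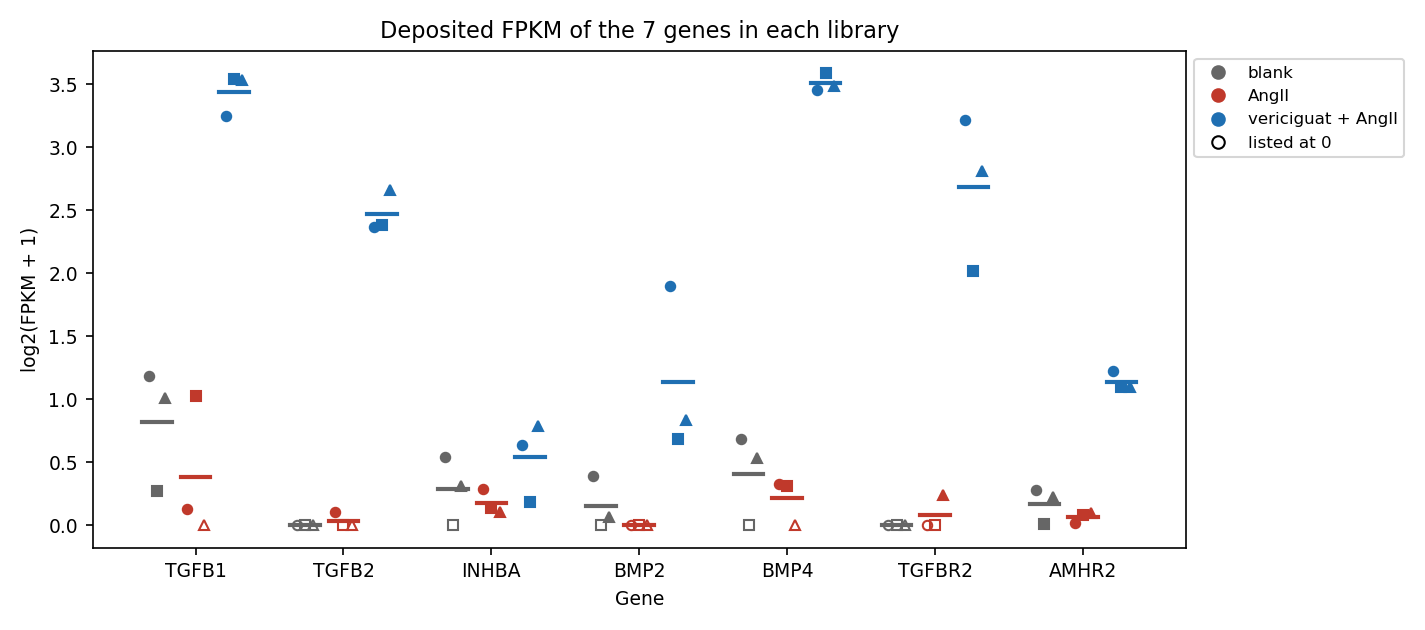
The vertical axis gives log2(FPKM + 1) of the 5 ligand genes and 2 receptor genes in each of the 9 libraries, with the genes on the horizontal axis. Points are libraries coloured by group and shaped by replicate number, open points are listed at 0, and bars are group means. The treated TGFB1 and BMP4 points stand for 8.51 to 11.0 FPKM, and INHBA overlaps between the groups.

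Since FPKM is not a count, differences were tested with limma on log2(FPKM + 1) over the 10908 genes that reached FPKM 1 in 3 or more libraries. The calls required a log2 fold change of 1 or more in either direction together with an adjusted p below 0.05. TGFB1, TGFB2, BMP4, TGFBR2 and AMHR2 passed this filter, INHBA and BMP2 did not, and apart from TGFB1 the genes that passed did so through the treated libraries alone and so had to differ. At such low FPKM the added 1 makes a fold change look smaller than it is. In comparison with the AngII group, TGFB1 was 3.06 higher on the log2 scale in the treatment group (SE 0.292, limma adjusted p = 7.11e-07) and BMP4 was 3.30 higher (SE 0.178, limma adjusted p = 4.01e-09). TGFB2, TGFBR2 and AMHR2 were higher by 2.44, 2.60 and 1.07. All 5 tested genes were called, where 99.5% of all tested genes were called higher and the median over all tested genes was a log2 fold change of 2.76. TGFB1 and BMP4 lay above that median and TGFB2, TGFBR2 and AMHR2 below it, but with a pseudocount of 0.1 TGFB2 and TGFBR2 (both at 5.27) lay above the median of 4.78 as well. After median-ratio scaling none of the 5 was called, beside 2.34% of all tested genes called higher and 1.82% lower, with TGFB1 at 0.04, BMP4 at 0.27 and AMHR2 turned to −0.06. After quantile normalization none was called, beside 2.87% and 0.733%.

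The treatment group was then set against the blank group, a comparison that shares the treated libraries with the previous one. Here too TGFB2, BMP4, TGFBR2 and AMHR2 had passed the filter through the treated libraries alone. TGFB1 was higher by 2.62, TGFB2 by 2.47, BMP4 by 3.10 and TGFBR2 by 2.68 on the log2(FPKM + 1) scale, with limma adjusted p between 3.00e-10 and 2.98e-06. AMHR2 was higher by 0.97 (limma adjusted p = 9.16e-08), short of the fold threshold, and at 1.02 it passed that threshold without blank library 1, as it did at 2.64 with a pseudocount of 0.1. Of the 5 tested genes 4 were called, where 99.3% of all tested genes were called higher with a median of 2.83. After median-ratio scaling the direction turned for TGFB1, to −1.27 (limma adjusted p = 0.0335), for BMP4, to −0.11, and for AMHR2, to −0.36, while TGFB2 and TGFBR2 stayed higher at 0.39 and 0.47, short of the fold threshold. In that fit 6.15% of all tested genes were called higher and 3.41% lower. Its scaling factors ran from 0.0792 for blank library 2 to 15.8 for treated library 1, and rested on the 3826 genes above 0 in all 9 libraries. Without the filter on low values, all 7 genes could be fitted. BMP2 was then 1.14 higher than in AngII (limma adjusted p = 0.00385) and 0.99 higher than in blank (limma adjusted p = 0.00841), while INHBA was at 0.36 and 0.25 and did not pass the adjusted threshold (limma adjusted p = 0.0786 and 0.199). Against AngII 6 of 7 were called in that fit, beside 61.5% of 18281 genes, with a median of 2.44 for the 7 genes and 1.72 for all genes. Against blank 4 of 7 were called, beside 61.6%, with medians of 2.47 and 1.74.

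The AngII and blank groups were compared to ask whether AngII alone was accompanied by a change in these genes. None of the 5 tested genes was called by limma, where 1.44% of all tested genes were called higher and 0.11% lower. On the deposited values none of the 5 had a limma unadjusted p below 0.05, beside 1567 of all 10908 tested genes. The log2 fold changes were −0.44 for TGFB1 (SE 0.292, limma adjusted p = 0.582), −0.19 for BMP4, −0.11 for AMHR2, 0.03 for TGFB2 and 0.08 for TGFBR2. Rescaling moved TGFB1 to −1.31 with median-ratio scaling (limma unadjusted p = 0.00753, adjusted p = 0.0506) and to −1.42 with quantile normalization (unadjusted p = 0.0121, adjusted p = 0.0709). AMHR2 moved to −0.30 and −0.55 (limma unadjusted p = 0.0455 and 0.00939, adjusted p = 0.143 and 0.0596), and none of the 5 was called in either fit, beside 3.23% and 4.13% of all tested genes called lower and 5.16% and 5.97% called higher. The mean FPKM of TGFB1 in AngII was 0.453-fold the blank mean (0.0553-fold without AngII library 2), and AngII library 2, at 1.04, lay inside the blank range. Each of the 7 genes overlapped between these groups on the FPKM and on the relative scale described further on, beside 12.8% of all genes above 0 that were higher and 1.15% that were lower in AngII without overlap on the FPKM scale, and 8.91% and 1.72% on the relative scale.

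**Figure D2:**
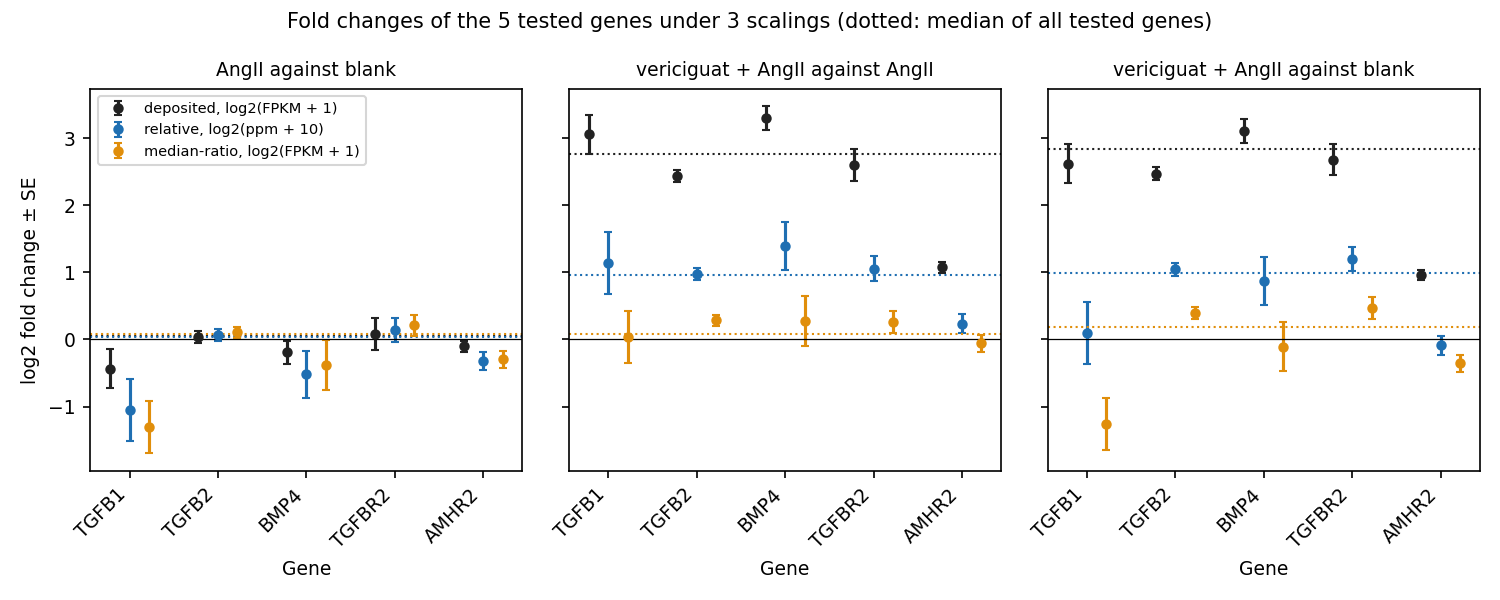
Log2 fold changes of the 5 tested genes from limma in the 3 comparisons, on the log2(FPKM + 1) scale, on the log2(relative level + 10) scale and after median-ratio scaling. Points are estimates, bars are standard errors and dotted lines mark the median of all tested genes. TGFB1 is at 3.06 against AngII as deposited, at 1.14 on the relative scale and at 0.04 after median-ratio scaling.

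Low values of a gene were read as multiples of what 1 fragment was worth, to estimate how few fragments lay behind the blank and AngII values. Over the 22 values above 0 of TGFB1, INHBA, BMP2, BMP4 and AMHR2 in those 6 libraries, the estimated fragment numbers were whole to within 0.0274. The unit of each gene was itself fitted to make its values whole, and BMP2 had only 2 values. This closeness is therefore no independent check of the estimate. TGFB1 rested on 16, 3 and 14 fragments in blank and on 1, 9 and 0 in AngII. INHBA rested on 26, 0 and 15 in blank and on 11, 4 and 3 in AngII, more than TGFB1 in 4 of the 6 libraries, and in blank libraries 1 and 3 it did so at a lower FPKM. BMP4 rested on 11, 0 and 9 and on 4, 3 and 0, and BMP2 on 6, 0 and 1 and on none. AMHR2 rested on 21, 1 and 18 and on 1, 4 and 5, so that values of a gene at 0.009 FPKM and at 0.092 FPKM could each be a single fragment. The true numbers could be a whole multiple of these, since the smallest step is taken as 1 fragment. The length over which fragments were counted, relative to TGFB1, was taken from the ratio of these fitted units. It came to 4.53 for INHBA, 1.55 for BMP2, 1.44 for BMP4 and 7.81 for AMHR2. For TGFB2 and TGFBR2 no estimate was made, because each had only 1 value above 0 in the 6 libraries.

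In the treated libraries the same unit gave 91, 102 and 96 fragments for TGFB1, 154, 152 and 134 for BMP4, 112, 85 and 81 for AMHR2, 27, 6 and 30 for INHBA and 45, 9 and 11 for BMP2. These numbers are less certain, because the treated libraries were tied to the others by only 359 to 405 low genes, with 26 to 39 of them at the chosen ratio. On this estimate AMHR2 had about as many fragments as TGFB1 in the treatment group, at a mean FPKM of 1.20 against 9.90. The longer counted length of AMHR2 comes from the same fitted units and was not measured separately. By the same estimate the depths of the libraries differed by up to 1.67-fold. The blank libraries came to 1.16, 1.34 and 1.27 of the depth of AngII library 1, and the treated libraries to 0.981, 0.878 and 0.839. The search allowed only depth ratios to AngII library 1 within 0.7 on the log2 scale in either direction. A larger ratio could not have come out, so these values do not show that the depths were similar. The treated fragment numbers rest on the same bound.

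**Figure D3:**
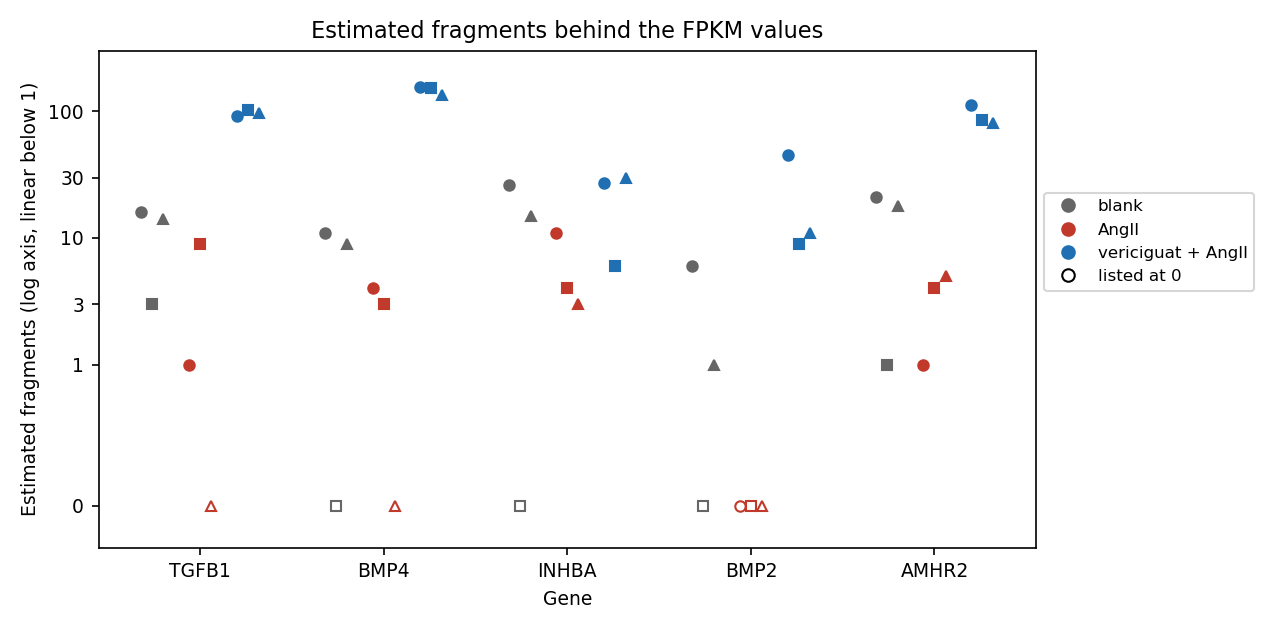
Estimated fragments behind each FPKM value of TGFB1, INHBA, BMP2, BMP4 and AMHR2 in the 9 libraries, with points coloured by group. The blank and AngII points lie at 26 fragments or fewer, and the treated points of BMP4 lie between 134 and 154.

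The order of the ligands by FPKM was compared within each library, where the scaling of the library plays no part. FPKM is scaled by gene length, but which sequences each value counts was not checked, so the order between genes is uncertain. In the blank and AngII libraries it rests on 26 estimated fragments or fewer for each ligand with an estimate. TGFB1 was the highest ligand in 3 of 3 blank libraries, in 1 of 3 AngII libraries and in 1 of 3 treated libraries. In the treatment group BMP4 led in libraries 1 and 2 and TGFB1 in library 3, followed in every treated library by TGFB2, BMP2 and INHBA in that order. TGFB1 and BMP4 could not be told apart there, with a log2 ratio of TGFB1 to BMP4 of −0.08 ± 0.14 (SD, n = 3) and a range from −0.23 to 0.05. TGFB1 was above TGFB2 by a log2 ratio of 1.12 ± 0.19 (SD, n = 3) in the treated libraries. In the 2 blank libraries with both genes above 0, TGFB1 was above BMP4 by 1.07 and 1.17 on the log2 scale, and blank library 2 held TGFB1 as its only ligand above 0. In AngII library 1 BMP4 was highest, in AngII library 2 TGFB1, and in AngII library 3 INHBA was the only ligand above 0, so the AngII group had no common order. Of the summed ligand FPKM, TGFB1 held 48.1%, 100% and 57.9% in blank, 14.3%, 75.2% and 0% in AngII, and 32.8%, 40.0% and 38.2% in the treated libraries. BMP4 held 38.5%, 41.3% and 37.0% in the treated libraries, close to the TGFB1 shares.

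INHBA had the lowest FPKM of the 5 ligands in 3 of 3 treated libraries. In blank libraries 1 and 3 it stood above BMP2 and TGFB2, in AngII library 1 it stood above all but BMP4, and in AngII library 3 it led, on 3 estimated fragments. Its log2 ratio to AMHR2 averaged 1.68 ± 2.23 in the AngII libraries (range 0.04 to 4.22) and −1.65 ± 1.24 in the treated libraries (SD, n = 3 each). The highest AngII ratio, in library 1, rests on AMHR2 at 1 estimated fragment. The difference was −3.33 without overlap (two-sided exact permutation p = 0.1, 0.378 after adjustment over 17 ratio tests). The log2 ratio of INHBA to BMP4 averaged −4.76 in the treated libraries and −0.66 in the blank libraries with both genes above 0.

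**Figure D4:**
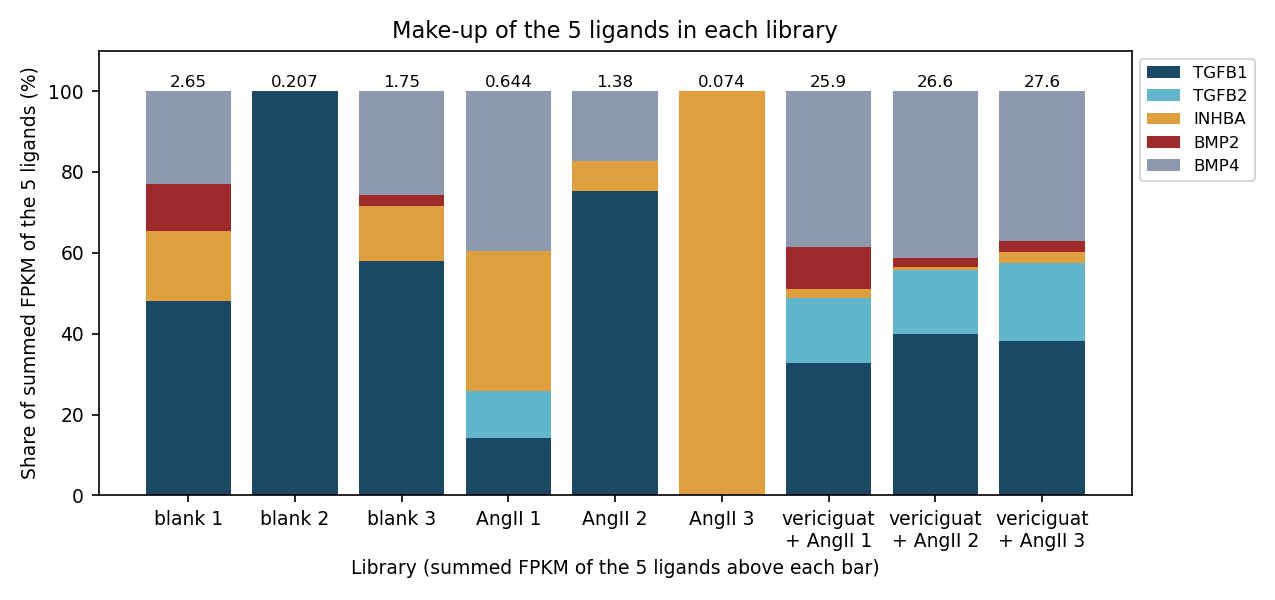
Share of the summed ligand FPKM held by TGFB1, TGFB2, INHBA, BMP2 and BMP4 in each of the 9 libraries, in percent, with the summed ligand FPKM above each bar. TGFB1 is 100% of blank library 2, INHBA is all of AngII library 3, and TGFB1 and BMP4 hold 32.8% to 41.3% each in the treated libraries.

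Because nearly all genes were higher in the treated libraries, each level was also expressed relative to the other genes, in ppm, by scaling the FPKM of all genes but the KEF51 entries to a sum of 1000000 per library. On this relative scale TGFB1 was at 41.1, 5.71 and 26.9 in blank, 2.01, 18.0 and 0 in AngII, and 20.0, 24.9 and 24.3 in the treated libraries. The treated values lay within the blank range and above the AngII values, the nearest AngII library being at 18.0. The treated mean of 23.0 ± 2.68 (SD, n = 3) was 0.938-fold the blank mean of 24.6 ± 17.8 and 3.45-fold the AngII mean of 6.68 ± 9.87. Without blank library 1 the first ratio was 1.42, and without AngII library 2 the second was 22.9. BMP4 was at 19.6, 0 and 12.0 in blank, 5.57, 4.17 and 0 in AngII, and 23.4, 25.7 and 23.5 in the treated libraries, without overlap with either group. TGFB2 was at 9.78, 9.82 and 12.3 in the treated libraries and at most 1.62 elsewhere. TGFBR2 was at 19.5, 7.08 and 13.9 in the treated libraries and at most 3.36 elsewhere. For these last 3 genes the relative level was therefore higher in the treatment group than in any other library.

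The other ligands and AMHR2 differed from that pattern. INHBA had a relative level of 14.7, 0 and 6.33 in blank, 4.87, 1.77 and 1.37 in AngII and 1.31, 0.322 and 1.67 in the treated libraries. Its treated mean was 0.412-fold the AngII mean and 0.157-fold the blank mean, with overlapping ranges in both cases. Without AngII library 1 the first ratio was 0.701, and the second was 0.348 without blank library 1 and 0.104 without blank library 2. BMP2 was at 9.97, 0 and 1.25 in blank, at 0 in AngII and at 6.38, 1.42 and 1.80 in the treated libraries. AMHR2 was at 6.91, 0.248 and 4.43 in blank, 0.262, 1.02 and 1.34 in AngII, and 3.14, 2.65 and 2.62 in the treated libraries, and thus overlapped with blank and not with AngII. Relative levels were higher without overlap for 6 of 7 genes against AngII, beside 70.1% of all genes above 0, and for 3 of 7 against blank, beside 70.5%.

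**Figure D5:**
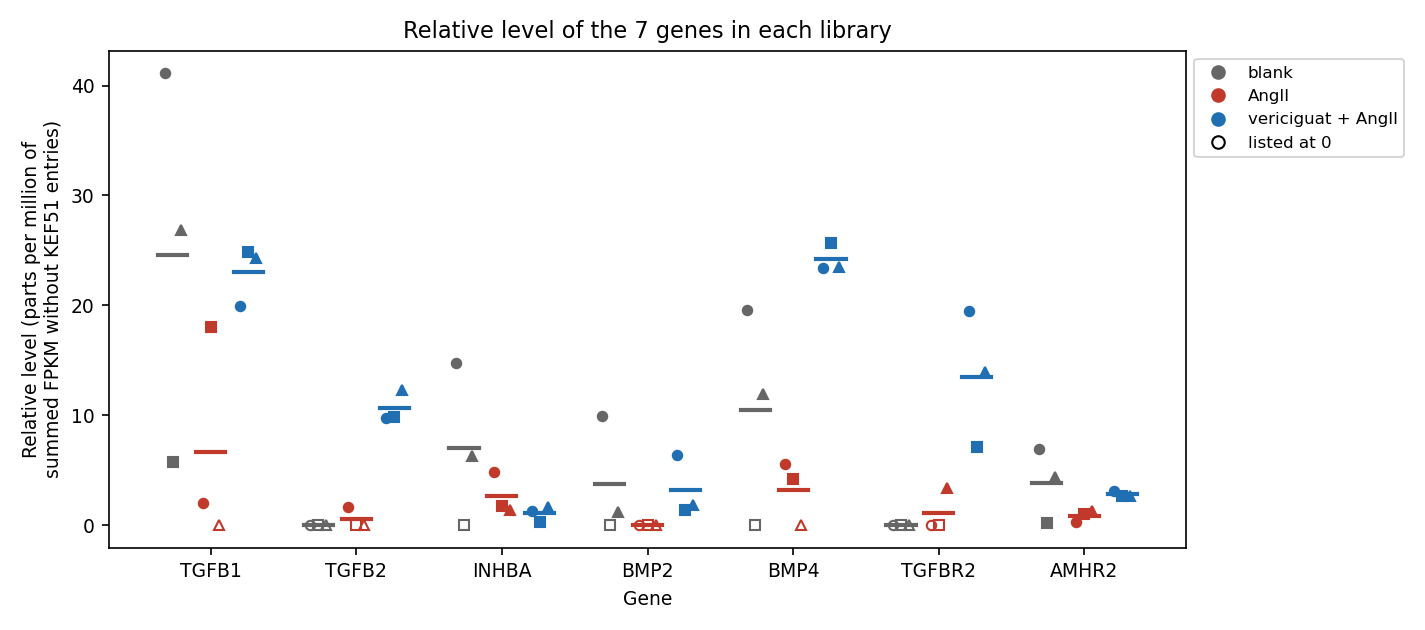
Relative level of the 7 genes in each library, in ppm of the summed FPKM without the KEF51 entries. Points are libraries coloured by group and bars are group means. TGFB1 in the treated libraries (20.0 to 24.9) lies within the blank range, and BMP4 (23.4 to 25.7) lies above it.

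Relative levels were tested with limma on log2(relative level + 10), over the 10895 tested genes that are not KEF51 entries. As before, TGFB2, BMP4, TGFBR2 and AMHR2 had passed the filter through the treated libraries alone, which limits what their p-values show. In comparison with the AngII group, TGFB1 was higher by 1.14 in the treatment group (SE 0.462, limma adjusted p = 0.0361), BMP4 by 1.39 (limma adjusted p = 0.00336) and TGFBR2 by 1.06 (limma adjusted p = 0.000250). TGFB2 was higher by 0.97, short of the fold threshold, and AMHR2 was at 0.24 (limma adjusted p = 0.131). These 3 calls of 5 stand beside 46.3% of all tested genes called higher and a median of 0.96. The TGFB1 call was lost without AngII library 1 or 3 and without each treated library in turn, with limma adjusted p from 0.0791 to 0.146 in these fits. The TGFBR2 call was lost by its fold without AngII library 1 or 2 or treated library 1, with values of 0.99, 0.99 and 0.88. TGFB2 passed the fold threshold without AngII library 1 (1.04) or treated library 1 (1.00). With a pseudocount of 1 in place of 10, TGFB1, TGFB2, BMP4 and TGFBR2 were called, TGFB2 at 3.07 and TGFBR2 at 3.05, beside 76.9% of all tested genes called higher with a median of 2.26, and with a pseudocount of 100 none was called, beside 5.02%.

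Against blank, TGFB2 and TGFBR2 were called higher on the relative scale, by 1.04 and 1.20 (limma adjusted p = 2.34e-06 and 8.40e-05), where 48.4% of all tested genes were called higher with a median of 1.00. Both genes were at 0 in every blank library and entered the test through the treated libraries alone. The direction of these calls was therefore built into their selection, though not the size of the fold change. The TGFB2 call was lost without treated library 3, at 0.99. TGFB1 was at 0.09 (limma adjusted p = 0.854) and turned to −0.40 without blank library 2. BMP4 was higher by 0.87 (limma adjusted p = 0.0363), below the fold threshold, and moved to 1.21 without blank library 1 and to 0.42 without blank library 2. AMHR2 was at −0.08 (limma adjusted p = 0.581) and turned to 0.07 without blank library 1. Between AngII and blank no gene of the 5 was called, beside 1.13% called higher and 0.239% called lower. In that comparison TGFB1 was at −1.05 (SE 0.462, limma adjusted p = 0.263) and AMHR2 at −0.32 (limma adjusted p = 0.262). These were the 2 of 5 with a limma unadjusted p below 0.05, beside 1973 of all 10895 tested genes. Without blank library 2, the library with the fewest detected genes, TGFB1 was called lower in AngII by limma, at −1.53 (adjusted p = 0.0232), in a fit that called 6.2% of all tested genes lower and 2.16% higher. In the fit without a filter 2 of 7 genes were called higher against AngII (26.7% of all genes) and 2 of 7 against blank (28.3%), and INHBA was at −0.18 and −0.52.

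A further measure was the percentile of each gene among the 22499 genes other than KEF51, with ties shared. TGFB1 stood at percentile 94.6, 94.9 and 96.3 in the blank libraries and at 77.5, 82.4 and 82.4 in the treated libraries. Its rank was thus lower in the treatment group than in blank in every library, although its FPKM was higher. AngII library 1 had TGFB1 at percentile 71.5, AngII library 2 had it at 93.5, and AngII library 3 listed it at 0, so both AngII values above 0 lay below the blank ones. AMHR2 stood at 78.8, 76.2 and 82.9 in blank, 54.7, 63.4 and 68.2 in AngII and 51.3, 51.1 and 50.6 in the treated libraries, with no overlap between any 2 groups. This order depended on the genes listed at 0, which were 53.7% to 75.6% of the genes in the blank and AngII libraries and 25.5% to 26.9% in the treated libraries. Among genes above 0 alone, AMHR2 stood at percentile 48.8, 2.57 and 56.8 in blank, 2.12, 19.2 and 27.7 in AngII and 34.6, 33.1 and 32.5 in the treated libraries, which then lay above AngII and within the blank range. TGFB1 stood at 87.0, 79.3 and 90.6 in blank and at 69.8, 75.9 and 76.0 in the treated libraries by that count, and so kept its direction between these groups. In AngII libraries 1 and 2 TGFB1 stood at 38.6 and 85.7 among genes above 0, the latter within the blank range. INHBA stood at 82.7, 69.4 and 68.5 in AngII and at 43.9, 35.3 and 46.6 in the treated libraries among all genes, and at 62.8, 32.5 and 28.4 and at 24.6, 11.5 and 27.0 among genes above 0. With genes at 0 included, the percentile was lower in the treatment group without overlap for 2 of 7 genes against AngII (INHBA and AMHR2), beside 26.5% of all genes above 0, and for 2 of 7 against blank (TGFB1 and AMHR2), beside 32.7%. The percentile was higher in the treatment group without overlap for 1 of 7 against AngII (BMP2, at 0 in every AngII library), beside 19.6%. Against blank it was higher without overlap for 2 of 7 (TGFB2 and TGFBR2, at 0 in every blank library), beside 23.8%. Between AngII and blank it was lower in AngII for 3 of 7 (TGFB1, BMP2 and AMHR2), beside 33.6%. Each of these differences had a two-sided exact permutation p of 0.1, and 0.21 after adjustment over 21. BMP2 was at FPKM 0 in blank library 2 as in every AngII library. Its percentile there (37.8 against 26.8 to 28.0 in AngII) differed only because more genes were at 0 in blank library 2. Among genes above 0, TGFB1 and AMHR2 overlapped between AngII and blank.

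Of 105 genes of the pathway (ligands, receptors, intracellular signalling proteins, extracellular regulators and target genes), 18 were listed by symbol. They comprised 10 of 33 ligands, 2 of 14 receptors, 0 of 17 intracellular proteins, 2 of 24 extracellular regulators and 4 of 17 target genes, so no SMAD gene could be set beside the ligands. Besides the 7 genes, 8 passed the filter, of which BMP15, GDF9 and ITGB8 did so through the treated libraries alone and so had to differ. Between AngII and blank limma called none of these 8, with log2(FPKM + 1) fold changes from −1.50 for ACTA2, the smooth muscle actin of myofibroblasts, to 1.03 for COL1A2, a chain of type I collagen. Against AngII and against blank 8 of 8 were called higher on the deposited scale, as were 99.5% and 99.3% of all tested genes. On the relative scale 4 of 8 were called higher against AngII, beside 46.3% of all tested genes. These were ACTA2 at 4.69, the matricellular protein gene CCN2 at 1.84, the BMP coreceptor gene HJV at 1.80 and the fibronectin gene FN1 at 1.35. Against blank 2 of 8 were called higher on that scale, HJV at 2.93 and ACTA2 at 2.40, beside 48.4%. Without the filter on low values the calls were lost for CCN2 and FN1 against AngII (limma adjusted p = 0.0805 and 0.0633) and for ACTA2 against blank (limma adjusted p = 0.0566).

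FPKM values show how these genes compare with the ligands. ACTA2 had a mean of 3.94 ± 3.79 (SD, n = 3) in blank, 0.381 ± 0.565 in AngII and 172.8 ± 36.5 in the treatment group. CCN2 averaged 4.10 ± 3.72, 0.597 ± 0.0860 and 29.4 ± 8.37 FPKM in the same order, and FN1 averaged 0.777 ± 0.728, 0.271 ± 0.235 and 12.1 ± 1.89. COL1A2 averaged 0.401 ± 0.321, 2.40 ± 2.47 and 14.8 ± 1.59, the only one of these 4 target genes with a higher mean in AngII than in blank, with overlapping libraries. HJV was listed at 0 in blank and averaged 0.659 ± 0.379 in AngII and 28.8 ± 6.36 in the treatment group. GDF9 and BMP15, ligands known from the oocyte, averaged 3.57 ± 0.833 and 1.98 ± 0.690 FPKM in the treated libraries, BMP15 was at 0 in all others, and GDF9 was above 0 in 1 AngII library only. ITGB8, an integrin subunit that activates latent TGF-β, averaged 2.07 ± 0.904 there and at most 0.0117 in the other groups.

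The genes whose relative profile over the 9 libraries was nearest to a ligand or receptor gene were sought among genes with a symbol that passed the filter, by the root mean square difference of the centred log2 values. For TGFB1 they were YARS1 at 0.247, THBD at 0.303 and EIF4EBP3 at 0.307. INHBA was nearest to DYNLT4 at 0.226 and AMHR2 to PRKCE at 0.0762. TGFB2, TGFBR2 and BMP2 were above 0 in fewer than 6 libraries and were left out of this search.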

How the data were processed

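RNA-seq of 9 libraries of cardiac fibroblasts was used, and groups and replicates were taken from the sample labels. The authors deposited a single table of FPKM values per gene. The submitters' processing notes name FastQC 0.11.9, Trimmomatic 0.39, HISAT2 2.2.1, featureCounts 2.0.1 and the build OryCun2.0, without their order or settings. Depth is not given, so fragments were estimated from the smallest steps of the values, with the depth ratio bounded to 0.7 on the log2 scale. Tests used limma 3.58.1 (lmFit, eBayes with trend) in R 4.3.3, with all 9 libraries in a single fit without covariates, on log2(FPKM + 1) and on log2(relative level + 10). Single values were compared with two-sided exact permutation tests in scipy 1.17.1. The fit was tested on simulated data. The genes named are the 7 members in every library, the other pathway genes listed by symbol that passed the filter, and the 3 nearest profiles of each member above 0 in at least 6 libraries, of which the first is given for INHBA and AMHR2 and those of BMP4 are not reported here. The members, lists and tests were chosen with earlier results of these data known. The symbols were matched with case ignored, all 7 equal rat symbols, none of the 20346 LOC entries is a gene of the rat table, and no sequence or coordinate is given because the builds differ. Alternatives were other pseudocounts and filters, a fit of the compared groups alone, quantile normalization, median-ratio scaling, a replicate block and each library left out. The log2 ratio of TGFB1 to BMP4 with treated libraries left out, and the ratios of group means with each library left out, were added after the data were seen.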

Additional observations from a re-analysis of the deposited data

How the results depend on the processing

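The calls on deposited FPKM depended on the scaling. Against AngII the number of the 5 tested genes called went from 5 to 0 with median-ratio scaling and to 0 with quantile normalization, where 454 and 393 of 10908 genes were called. Against blank it went from 4 to 1 (TGFB1, lower in the treatment group) and to 0, where 1043 genes (671 higher, 372 lower) and 1293 genes were called. Under median-ratio scaling the log2 fold changes reversed to −0.058 for AMHR2 against AngII, and against blank to −1.27 for TGFB1 (limma adjusted p = 0.0335), −0.11 for BMP4 and −0.36 for AMHR2. Under quantile normalization they reversed to −0.32 for AMHR2 against AngII, and against blank to −1.17 for TGFB1 and −0.87 for AMHR2. A pseudocount of 0.1 on FPKM raised the number against blank to 5. On the relative scale a pseudocount of 1 raised it to 4 against AngII, and a pseudocount of 100 left 0 genes called against AngII and 0 against blank, and TGFB1 against blank reversed to −0.0078. AMHR2 against blank reversed to 0.011 with a pseudocount of 1. With 1 library left out it ranged from −0.29 to 0.074, reversed without blank library 1, and TGFB1 ranged from −0.40 to 0.45, reversed without blank library 2. With 1 library left out, 0 to 0 genes were called between AngII and blank on FPKM and 0 to 1 on the relative scale, 5 to 5 and 2 to 3 against AngII, and 4 to 5 and 1 to 3 against blank.

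Over all genes the calls between AngII and blank ranged from 0 to 1101 on FPKM over the alternatives (169 as reported) and from 0 to 910 on the relative scale (149 as reported). Against AngII they ranged from 393 to 11248 (10869) and from 552 to 8390 (5056), and against blank from 1043 to 11265 (10845) and from 659 to 8625 (5313). Deviations from the group means correlated from −0.06 to 0.06 on FPKM and from −0.04 to 0.10 on the relative scale between same-numbered libraries. Differently numbered libraries gave −0.06 to 0.06 and −0.09 to 0.08. With 3 libraries per group these values cannot show whether same-numbered libraries shared a culture or batch. With the replicate block, 0, 5 and 4 genes were called on FPKM, and on the relative scale 0, 2 and 2, TGFB1 against AngII being lost (limma adjusted p = 0.0530). The block reduced the calls between AngII and blank over all genes from 169 to 7 on FPKM and from 149 to 26 on the relative scale. A mean FPKM of at least 5 left none of the 7 genes to test. The blank and AngII values of the 5 genes with an estimate rest on 26 fragments or fewer. Estimated depths relative to AngII library 1 were 0.798 to 1.34 in the blank and AngII libraries and 0.839 to 0.981 in the treated libraries. The search held these ratios within 0.7 on the log2 scale, so they cannot show whether the true depths were similar.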
